A study of Homo sapiens with 4 samples.

Results

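The genes described here are components, inhibitors and target genes of the WNT pathway, chosen by symbol from a list of 43 genes. An array feature counted when the platform annotation gave it exactly 1 gene and that gene was on the list. In all, 42 of the 43 genes were measured, by 119 features, out of 18334 genes on the array. TCF7, a TCF factor, was not analysed here. The data came from HEK293T cells, an established line from human embryonic kidney, transfected with plasmids that express either a siRNA against CHD6 or a control siRNA. Total RNA was taken 48 h after transfection. Each of 4 arrays hybridised a CHD6 siRNA sample directly against a control siRNA sample. The siRNA sample carried the dye Cy3 on replicates 1 and 3 and the dye Hy5 on replicates 2 and 4. Whether replicates came from separate cultures is not in the labels, and the p-values here reflect only variation among these 4 hybridisations, which may be technical.

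WNT proteins are secreted ligands that bind a frizzled receptor together with the co-receptor LRP5 or LRP6. Without ligand, a cytoplasmic complex of AXIN, APC and the kinases GSK3A and GSK3B marks beta-catenin (CTNNB1) for destruction. When the receptors are engaged, dishevelled proteins hold that complex back, and beta-catenin enters the nucleus and joins TCF and LEF factors on their target genes. Several targets encode inhibitors of the pathway, and so feed back on it. HEK293T cells answer added WNT ligand and are widely used for beta-catenin reporter assays.

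Values are log2 ratios of CHD6 siRNA over control siRNA. Neither base nor direction is stated in the sources used. Base 2 was assumed from the spread of the values. The direction is called likely: each array's title puts the siRNA before the control, and 1 of the 3 features of CHD6 itself was below 0 on every array. It was chosen with these values known. CHD6, an ATP-dependent chromatin remodeler, had a gene mean of -0.45 ± 0.15 (SD, n = 4), carried by feature 27564 at -1.15 ± 0.24 (SD, n = 4), while its 2 other features were at -0.015 and -0.17. Over the 45220 features, Pearson's r was 0.80 and 0.79 within a dye orientation and -0.84 to -0.68 between orientations. Because of this, the main results are also given with the arrays turned by dye, which is how the data would read if the columns were Hy5 over Cy3. Where 1 replicate was left out, the mean given is dye-balanced: the average of the means of the 2 dye orientations. The lone array then stands for its orientation, so this need not equal the plain average of the 3 arrays left. The ratios carry no expression level, so they cannot show which receptors or cell markers the cells expressed.

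The letters CTTTGAT are the core that TCF and LEF factors recognise. They were sought on both strands of the RefSeq promoter windows (GRCh38.p14, 250 bases before to 50 after a gene start), which covered 27 of the 43 genes with 32 windows. Only the window of SP5, among those 32, held this 7-letter form (3.13%, against 2.62% of all 35116 windows). The 6-letter form CTTTGA, which the longer one contains, was in the windows of SP5, SP8 and DKK1 (9.38%, against 12.9% of all windows). Other forms of the core were not sought and are not marked. Of these 3 genes, SP8 and DKK1 were among the highest of the listed genes by mean log ratio and SP5 lay near 0. The windows of SP5 (chr2:170715087-170715386, forward strand), SP8 (chr7:20786837-20787136, reverse strand) and DKK1 (chr10:52314031-52314330, forward strand) are shown because they hold a form that was sought. That of CD44 (chr11:35138921-35139220, forward strand) is shown because CD44 was also high and its window holds neither form. They run 5′ to 3′ on the gene's strand, and capitals mark each match.
SP5: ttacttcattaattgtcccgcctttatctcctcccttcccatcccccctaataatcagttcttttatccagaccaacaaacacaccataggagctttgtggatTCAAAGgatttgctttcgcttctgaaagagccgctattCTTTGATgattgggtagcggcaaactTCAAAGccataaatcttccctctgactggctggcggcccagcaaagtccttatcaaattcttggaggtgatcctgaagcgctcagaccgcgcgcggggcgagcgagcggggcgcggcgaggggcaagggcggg
SP8: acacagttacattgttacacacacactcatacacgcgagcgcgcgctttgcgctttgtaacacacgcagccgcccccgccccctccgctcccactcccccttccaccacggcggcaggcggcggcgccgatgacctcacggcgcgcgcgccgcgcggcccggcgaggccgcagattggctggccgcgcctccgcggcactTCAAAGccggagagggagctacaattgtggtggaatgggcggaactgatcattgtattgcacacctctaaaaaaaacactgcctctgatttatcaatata
DKK1: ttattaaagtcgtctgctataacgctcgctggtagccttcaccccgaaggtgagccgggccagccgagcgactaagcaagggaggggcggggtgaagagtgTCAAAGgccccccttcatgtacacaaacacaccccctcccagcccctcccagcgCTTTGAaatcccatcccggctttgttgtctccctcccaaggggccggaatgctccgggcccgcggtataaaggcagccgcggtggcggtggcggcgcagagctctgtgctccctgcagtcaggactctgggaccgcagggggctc
CD44: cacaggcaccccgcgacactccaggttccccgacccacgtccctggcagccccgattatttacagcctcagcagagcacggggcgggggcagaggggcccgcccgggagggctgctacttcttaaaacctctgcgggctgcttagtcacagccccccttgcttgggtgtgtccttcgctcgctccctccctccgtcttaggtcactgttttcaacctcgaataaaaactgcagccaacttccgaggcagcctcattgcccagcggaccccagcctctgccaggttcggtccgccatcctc
Counted from the gene start, the matches in SP5 begin at -147, -109 and -83, the one at -109 being the 7-letter form on the forward strand. In DKK1 they begin at -149 and -95, and in SP8 at -50. A match is a description of the letters and does not show a bound site.

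None of the 42 genes passed the test. limma, fitted to all 18334 genes with dye orientation as a coefficient and adjusted by Benjamini-Hochberg, called 0 of 42, and 0.0218% of all genes (smallest adjusted p among the 42 = 0.158, for SP8). The targeted gene CHD6 did not pass as a gene mean either (limma adjusted p = 0.134). Its feature 27564 passed in the same fit over all features (limma adjusted p = 0.0339). At an unadjusted p under 0.05 limma had 6 of 42 (14.3%), against 9.37% of all genes. SP8, FZD10, DKK1 and CD44 were above 0 (4.97% of all genes had such a p and were higher), and BCL9 and CCND1 below (4.40%). In bulk RNA, fewer cells of a kind and less RNA per cell cannot be told apart. With the intercept alone, 0 of 42 passed, and 3 had an unadjusted p under 0.05 against 1.32% of all genes. The mean log ratio was above 0 for 22 genes (beside 48.9% of all genes) and below 0 for 20, with a median of 0.0053, beside -0.0025 over all genes. Of the 42 means, 28 lay within 0.1 of 0, and the share over all genes was not counted. The SD of the gene means was 0.138 over the 42 genes, beside 0.115 over all genes.

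**Figure D1:**
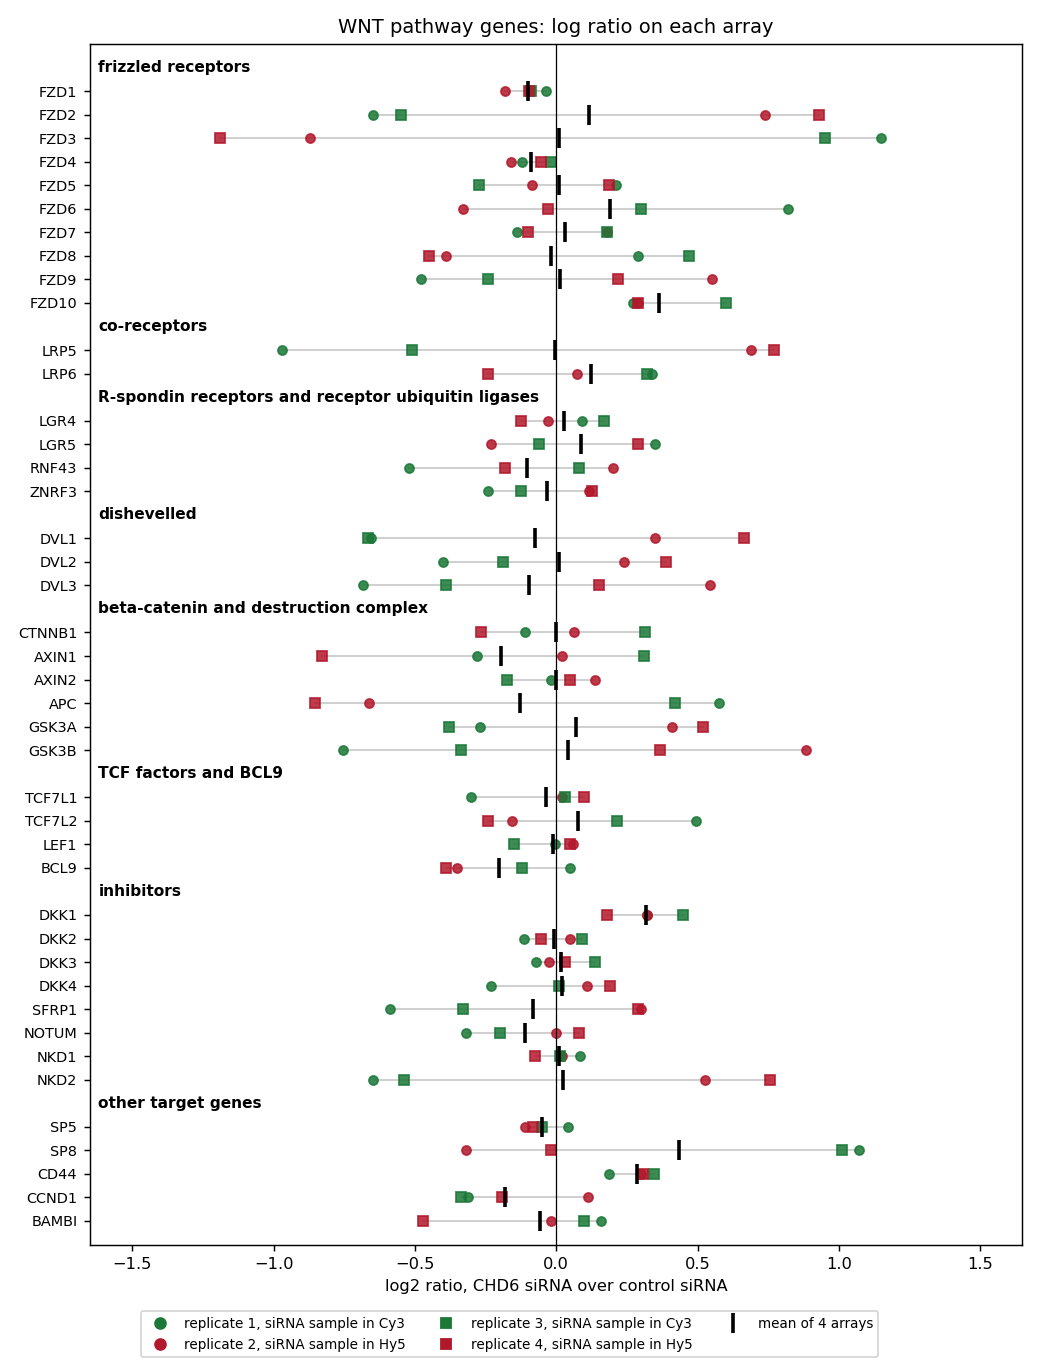
Log2 ratio of CHD6 siRNA over control siRNA (horizontal axis) for each of the 42 measured WNT pathway genes on each of the 4 arrays, grouped by role; green marks are arrays where Cy3 labelled the siRNA sample, red marks arrays where Hy5 did, and the black tick is the mean. Green and red marks stand on opposite sides of 0 for 21 of the 42 genes, FZD3 and LRP5 among them, against 52.7% of all genes. CD44, DKK1 and FZD10 have all 4 marks above 0.

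Of the 42 genes, 5 had 1 sign on all 4 arrays (11.9%), against 7.06% of all genes. FZD10, DKK1 and CD44 were above 0 on each array, 3 of 42 where 3.56% of all genes were, and FZD1 and FZD4 were below 0, where 3.50% of all genes were. Without replicate 1, 9 of the 42 had 1 sign on the other 3 arrays, against 14.1% of all genes. With the arrays turned by dye, 21 of the 42 would have 1 sign, against 52.7% of all genes.

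Standard errors from the fit were alike for most members, but eBayes moderation draws them towards a common value. They ranged from 0.066 to 0.15 with a median of 0.073. The SD over the 4 arrays, which includes the dye difference, ran from 0.060 (FZD1) to 1.21 (FZD3). The unadjusted 95% interval lay within 0.5 of 0 for 39 genes and within 1 of 0 for all 42 measured genes. The exceptions to the narrower bound were SP8, FZD10 and AXIN1.

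**Figure D2:**
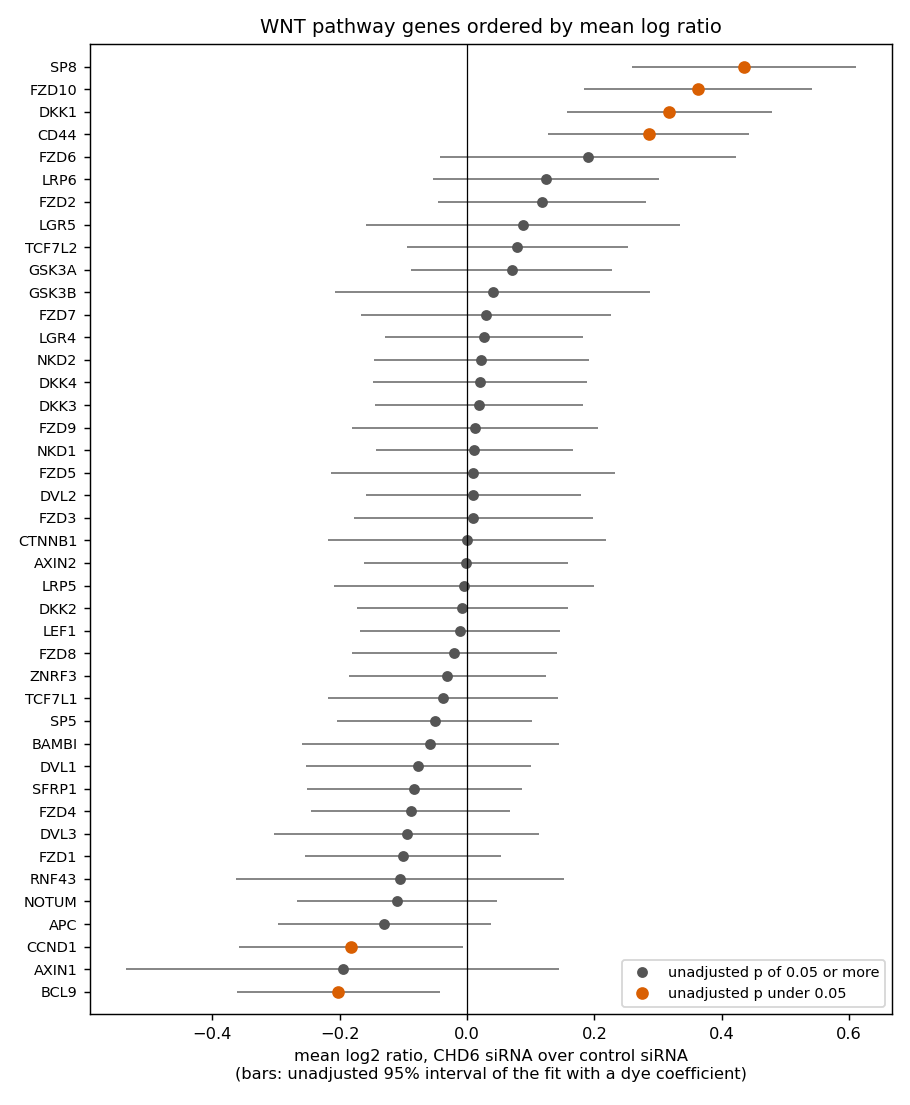
Mean log2 ratio (horizontal axis) of the 42 WNT pathway genes in rank order, with unadjusted 95% intervals from the limma fit with a dye coefficient; orange points have an unadjusted p under 0.05. SP8 is highest at 0.44 and BCL9 lowest at -0.20, and most intervals cross 0.

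Among the target genes, SP8 had the highest mean of the 42 listed genes, and CD44 was above 0 on every array. SP8, a zinc finger transcription factor of limb and brain development, was at 1.07, -0.32, 1.01 and -0.02 on replicates 1 to 4. Both high values came from the Cy3 arrays, those where Cy3 labelled the siRNA sample, and both others were below 0. Its mean was 0.44 ± 0.71 (SD, n = 4; limma adjusted p = 0.158), and it stood at rank 41 from the top among all genes. SP8 had 1 feature. Turned by dye it would be at -0.61 (adjusted p = 0.000484), so its direction depends on how the columns are read.

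CD44, a cell surface receptor for hyaluronan, was at 0.19, 0.30, 0.35 and 0.31 on replicates 1 to 4. All 4 values were above 0 and the dye orientations overlapped. The mean was 0.29 ± 0.069 (SD, n = 4), a 1.22-fold ratio, and did not pass (limma adjusted p = 0.270). Its 12 features split by annotation. The 10 features annotated to its RefSeq transcript were each above 0 on all 4 arrays, with means from 0.22 to 0.46 and an average of 0.36. Both features annotated to older GenBank entries were near 0, at -0.050 and -0.078. Whether these 10 features carry the same probe sequence was not tested, so they are not counted as separate measurements. Turned by dye, CD44 would be at 0.019.

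The cell cycle target CCND1, which encodes cyclin D1, was at -0.31, 0.11, -0.34 and -0.19. Replicate 2 alone was above 0. Its mean was -0.18 ± 0.21 (SD, n = 4; limma adjusted p = 0.519). Of its 12 features, 9 shared that pattern of signs and feature 6635 was below 0 throughout. Feature 279 ran from 0.42 on replicate 1 to -0.49 on replicate 2, and feature 40691 was at 0.69 on replicate 4. Without replicate 4 the dye-balanced gene mean was -0.11 and without replicate 2 it was -0.26.

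SP5, a transcription factor that is a direct beta-catenin target and represses other targets, was at 0.04, -0.11, -0.05 and -0.083. Its mean was -0.051 ± 0.065 (SD, n = 4; limma adjusted p = 0.869). Its 3 features had means of -0.19, -0.015 and 0.05. BAMBI, a decoy receptor of the TGF-beta family that WNT signals induce, was at -0.058 ± 0.28 (SD, n = 4), with replicate 4 the lowest at -0.47.

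**Figure D3:**
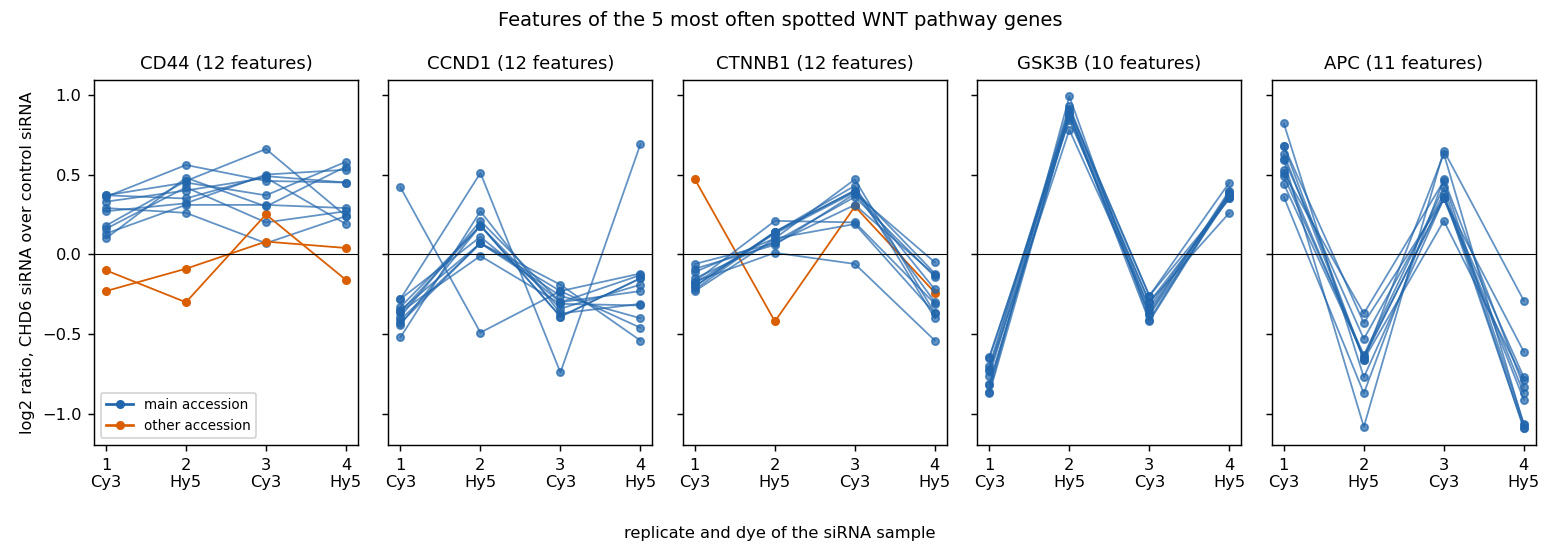
Log2 ratio (vertical axis) of each feature of CD44, CCND1, CTNNB1, GSK3B and APC on replicates 1 to 4 (horizontal axis, with the dye of the siRNA sample); each line is 1 feature, blue for the accession with most features and orange for the others. The 10 blue lines of CD44 stay above 0, whereas GSK3B and APC change sign with the dye on every feature.

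Of the 8 listed inhibitors, DKK1 had the highest mean, and the other 7 had means from -0.11 to 0.023. DKK1, which binds LRP5 and LRP6 and blocks their use by WNT ligands, was at 0.32, 0.32, 0.45 and 0.18 on its 1 feature. All 4 arrays were above 0, in both dye orientations. The mean was 0.32 ± 0.11 (SD, n = 4), a 1.25-fold ratio, and did not pass (limma adjusted p = 0.226). Leaving out any 1 replicate kept the dye-balanced mean between 0.28 and 0.35. Turned by dye, DKK1 would be at -0.068.

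The other dickkopf genes lay close to 0. DKK2 was at -0.0075, DKK4 at 0.02, and DKK3, a divergent family member, at 0.019. The 5 features of DKK3 differed in dye dependence: feature 15599 was at 0.71, -0.78, 1.07 and -0.88, while feature 15846 was at -0.62, 0.12, -0.32 and 0.24. NOTUM, an enzyme that removes the lipid WNT ligands need, was at -0.32, 0, -0.20 and 0.08, with a mean of -0.11 ± 0.18 (SD, n = 4; limma adjusted p = 0.675). SFRP1, which binds WNT ligands, was at -0.083. The dishevelled-binding inhibitors NKD1 and NKD2 were at 0.011 and 0.023. NKD2 was at -0.65 and -0.54 on the Cy3 arrays and at 0.53 and 0.76 on the Hy5 arrays, so its mean near 0 is the balance of opposite values.

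The 10 frizzled receptors had a median of 0.011, with 7 above 0 and 3 below. FZD10 was at 0.27, 0.29, 0.60 and 0.29 on its 1 feature. All 4 arrays were above 0, and replicate 3 stood apart from the others. The mean was 0.36 ± 0.16 (SD, n = 4; limma adjusted p = 0.217), a 1.29-fold ratio. The dye-balanced mean without replicate 3 was 0.28. Turned by dye, FZD10 would be at -0.073.

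FZD1 was at -0.035, -0.18, -0.09 and -0.095, and FZD4 at -0.12, -0.16, -0.02 and -0.055, both below 0 on each array. Their means were -0.10 ± 0.060 and -0.089 ± 0.063 (SD, n = 4 each; limma adjusted p = 0.705 and 0.747). For FZD1 the single sign came from averaging. Its feature 27425 was at -0.13, 0.02, -0.64 and 0.28 and its feature 34058 at 0.06, -0.38, 0.46 and -0.47, opposite in dye dependence. FZD4 had 1 feature, 37919, that was itself below 0 on each array, and 1 that was not.

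FZD3 and FZD2 differed most with dye among the frizzled genes. FZD3 was at 1.15 and 0.95 on the Cy3 arrays and at -0.87 and -1.19 on the Hy5 arrays. The values of the orientations did not overlap and their mean was 0.010. FZD2 ran the other way, at -0.65 and -0.55 in Cy3 and 0.74 and 0.93 in Hy5. Its mean was 0.12, and its dye-balanced mean without replicate 4 was 0.070. FZD6 was at 0.82, -0.33, 0.30 and -0.03, with a mean of 0.19 ± 0.49 (SD, n = 4; limma adjusted p = 0.605). Its dye-balanced mean was 0.06 without replicate 1, 0.32 without replicate 3 and 0.12 without replicate 4. FZD5 (0.010), FZD7 (0.03), FZD8 (-0.02) and FZD9 (0.013) had means close to 0. Feature 43059 of FZD5 was above 0 on each array, with a mean of 0.26, and its other 3 features had means from -0.17 to 0.085.

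The co-receptors LRP5 and LRP6 were at -0.005 and 0.12. LRP5 was at -0.97 and -0.51 on the Cy3 arrays and at 0.69 and 0.77 on the Hy5 arrays. LRP6 was above 0 on replicates 1 to 3 and at -0.24 on replicate 4 (limma adjusted p = 0.677). The R-spondin receptors LGR4 and LGR5, which raise receptor levels when bound, were at 0.026 and 0.088. RNF43 and ZNRF3, the ubiquitin ligases that clear frizzled proteins from the membrane, were at -0.11 and -0.031. None of these 4 genes had 1 sign on all arrays.

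In the cytoplasm, beta-catenin and its destruction complex showed no difference that passed the test. CTNNB1 was at -0.11, 0.063, 0.31 and -0.27. Values of both signs occurred within each dye orientation. Its mean was 0.00063 ± 0.25 (SD, n = 4), with a 95% interval from -0.22 to 0.22. AXIN2, a feedback target often used as a readout of beta-catenin activity, was at -0.020, 0.14, -0.17 and 0.050. Its mean was -0.0017 ± 0.13 (SD, n = 4), with a 95% interval from -0.16 to 0.16. Both Cy3 values of AXIN2 were below 0 and both Hy5 values above, but its 3 features differed in dye dependence. Feature 34975 was at -0.38, 0.60, -0.48 and 0.35, and feature 25129 ran the other way, at 0.24, -0.27, 0.11 and -0.15. Feature 15087 had a dye coefficient of 0.025. The means of the 3 features ran from -0.018 to 0.023.

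The remaining scaffold and kinase genes were more variable. AXIN1 was at -0.28, 0.02, 0.31 and -0.83, the least precise of the 42 genes. Its mean was -0.20 ± 0.49 (SD, n = 4; limma adjusted p = 0.742). The dye-balanced mean ranged from -0.41 without replicate 2 to 0.018 without replicate 4. APC was at 0.58 and 0.42 on the Cy3 arrays and at -0.66 and -0.85 on the Hy5 arrays. Its mean was -0.13 (limma adjusted p = 0.626), and its dye-balanced mean without replicate 4 was -0.082. All 11 of its features had a dye coefficient of -0.56 or below. GSK3A and GSK3B were at 0.070 and 0.040. GSK3B was at -0.76 and -0.34 in Cy3 and at 0.89 and 0.37 in Hy5. The dishevelled genes DVL1, DVL2 and DVL3, at -0.076, 0.010 and -0.095, were all below 0 on both Cy3 arrays and above 0 on both Hy5 arrays.

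In the nucleus, BCL9, which bridges beta-catenin to Pygopus proteins, had the lowest mean of the 42 listed genes with the columns read as deposited; turned by dye, the lowest would be FZD3. It was at 0.05, -0.35, -0.12 and -0.39 on its 1 feature. Both Hy5 values were below both Cy3 values. Its mean was -0.20 ± 0.21 (SD, n = 4; limma adjusted p = 0.426), and turned by dye it would be at -0.17. LEF1, a factor and a target, was at -0.005, 0.06, -0.15 and 0.05, with a mean of -0.011 ± 0.097 (SD, n = 4) and a 95% interval from -0.17 to 0.15. TCF7L1 and TCF7L2 were at -0.038 and 0.079. The 2 features of TCF7L2 differed: feature 28229 was at 0.91, -0.43, 0.43 and -0.66, and feature 2889 at 0.08, 0.12, 0 and 0.18.

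More of these genes passed the test for the dye coefficient than for the mean. That coefficient, which is the treatment difference if the arrays are turned by dye, passed the test for 16 of the 42 genes (38.1%), against 44.8% of all genes. The count was 9 without replicate 1, against 25.4% of all genes, and 0 without eBayes moderation, against 0.0273% of all genes. Of the 16, 10 were above 0 in Hy5 arrays, against 26.9% of all genes in that direction, and 6 were below, against 18.0%. LRP5 (0.74), FZD2 (0.72), NKD2 (0.62), GSK3B (0.59) and DVL1 (0.58) had the highest coefficients, and FZD3 (-1.04), APC (-0.63) and SP8 (-0.61) the lowest. If the columns were Hy5 over Cy3, these would be differences of CHD6 siRNA over control, with limma adjusted p from 9.88e-05 (FZD3) to 0.0178 (TCF7L2) over the 16. On that reading CHD6 itself would be at -0.095 (limma adjusted p = 0.346), beside -0.45 as deposited. Its feature 27564 would be at -0.16 (limma adjusted p = 0.195), beside -1.15 as deposited. CD44, DKK1, FZD10, CTNNB1, AXIN2, LEF1 and SP5 were not among the 16.

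**Figure D4:**
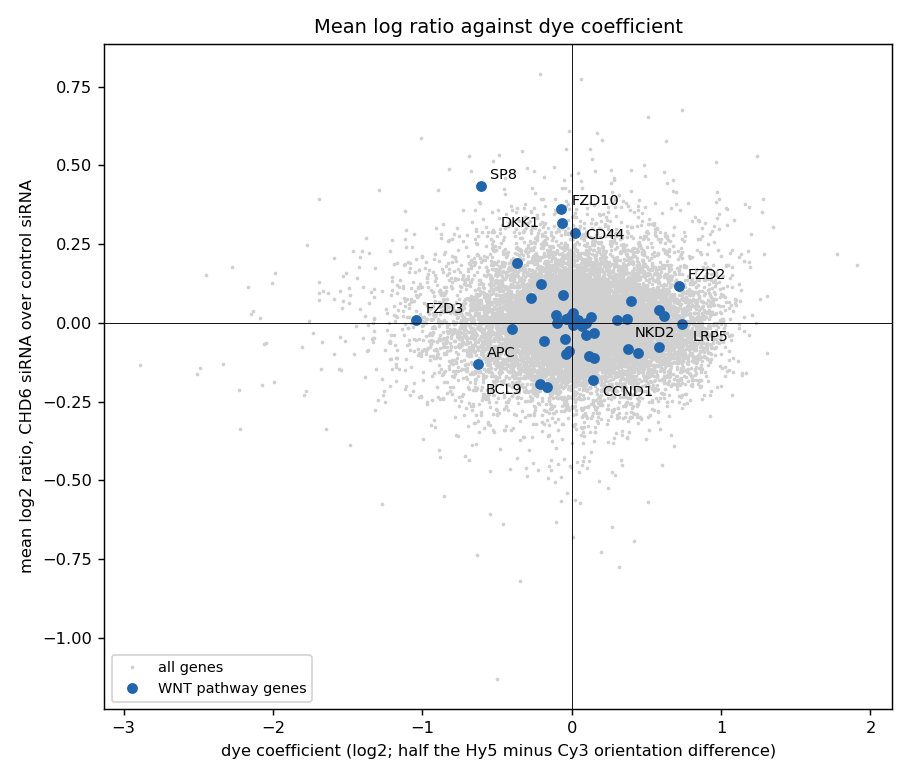
Mean log2 ratio (vertical axis) against the dye coefficient (horizontal axis, log2, the mean of the arrays after turning them by dye) for all 18334 genes in grey and the 42 WNT pathway genes in blue. DKK1, FZD10 and CD44 are high on the vertical axis with dye coefficients from -0.073 to 0.019, while SP8 is high at a coefficient of -0.61.

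Features of 1 gene could differ in dye dependence. Of the 22 genes with several features, 11 had dye coefficients of both signs, and 14 had feature means of both signs. The matching shares over all genes were not counted. Some of these signs rest on values near 0, as for DKK2 (dye coefficients -0.055 and 0.065). Others do not, as for DKK3 (from -0.86 to 0.325). The spread between the lowest and the highest feature mean had a median of 0.095 and was widest for CD44 (0.54). No feature of the 119 passed the test of its mean over all features (limma, fit with a dye coefficient), against 0.0199% of all 45220 features. An unadjusted p under 0.05 was found for 22 of the 119, 10 of them features of CD44, and for 7.33% of all features.

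Beyond the list, 83 of 88 further pathway genes were measured, and limma called 0 of them. At an unadjusted p under 0.05 there were 6 of 83, 3 higher and 3 lower, beside 9.37% of all genes, and 0 with the intercept alone, beside 1.32%. Turned by dye, 39 of the 83 passed, beside 44.8% of all genes. The median of the 83 genes was -0.013. The 19 WNT ligand genes had a median of 0.02. WNT2B was at 0.06, 0.18, 0.15 and 0.24, above 0 on each array, with a mean of 0.16 ± 0.075 (SD, n = 4; limma adjusted p = 0.526). WNT5A, a ligand of the beta-catenin-independent branch, had a mean of -0.16, with 0.18 and 0.095 in Cy3 against -0.42 and -0.49 in Hy5. WNT3A had a mean of 0.18. Its dye-balanced mean was -0.038 without replicate 4 and 0.40 without replicate 2.

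Of the 7 further lists, the secreted inhibitors had the widest range of means, from -0.36 to 0.22. SOSTDC1, an antagonist of BMP and WNT signals, was at -0.50, -0.17, -0.96 and 0.18, with a mean of -0.36 ± 0.49 (SD, n = 4; limma adjusted p = 0.321). SFRP4 was at 0.22 on average, with 0.79 and 0.92 in Cy3 and -0.39 and -0.45 in Hy5 (limma adjusted p = 0.368). TRABD2B, a protease that inactivates WNT ligands, was at 0.16 (limma adjusted p = 0.527). Among the further destruction complex genes, FRAT2, which encodes a GSK3-binding protein, was at -0.75, 0.22, -0.48 and -0.19. Its mean was -0.30 (limma adjusted p = 0.366), and its dye-balanced mean without replicate 4 was -0.20. ROR1, a receptor for WNT5A, was above 0 on each array with a mean of 0.18 ± 0.15 (SD, n = 4; limma adjusted p = 0.531). Its dye-balanced mean without replicate 4 was 0.094, and its mean was 0.29 with the median of its 3 features. The other nuclear regulators were below 0 for 10 of 12 genes, with a median of -0.054, and the other target genes below 0 for 8 of 11, with a median of -0.060, where 50.4% of all genes were below 0. These counts hold for the columns as deposited. Turned by dye, 9 of the 12 nuclear regulators would pass, 8 of them higher, and 5 of the 11 target genes, 3 of them higher. Of all genes, 44.8% would pass when turned, and 26.9% would pass and be higher. MYC, a target gene, was at -0.0079 over 12 features.

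**Figure D5:**
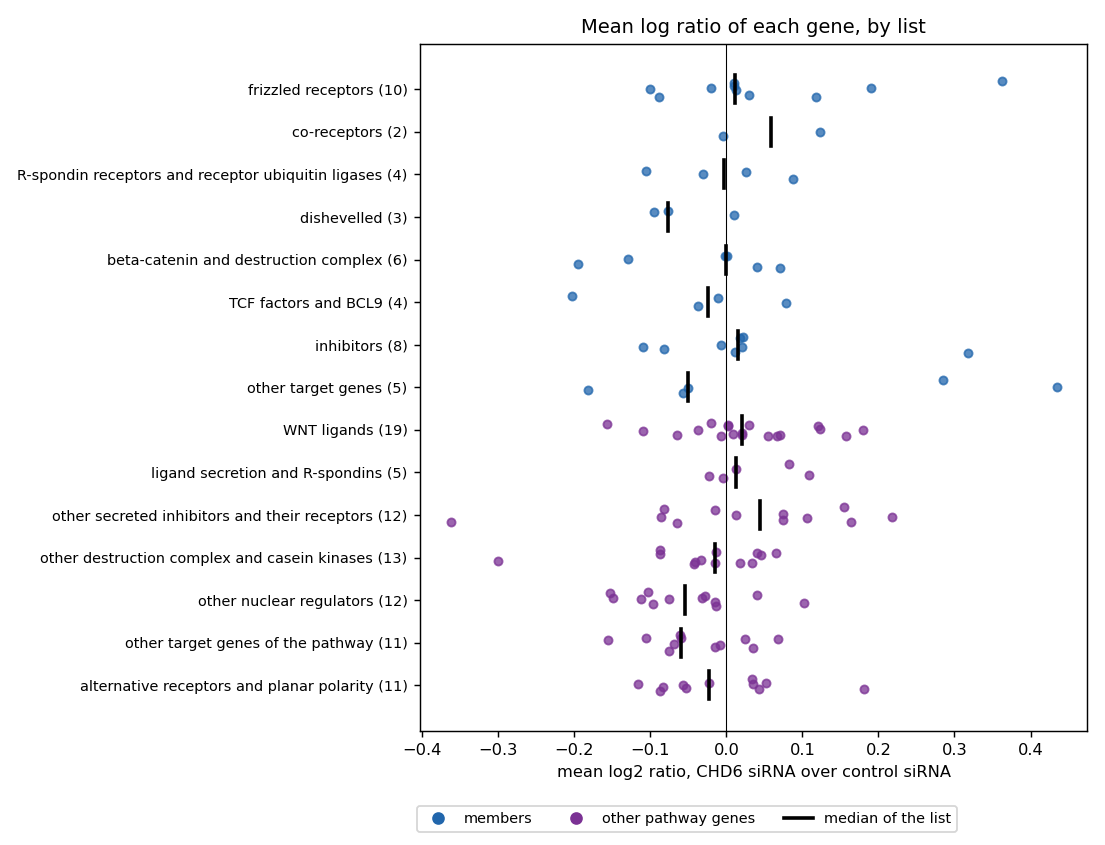
Mean log2 ratio (horizontal axis) of each measured gene, by list, with the number measured in parentheses; blue points are the 42 listed WNT pathway genes, purple points the 83 further pathway genes, and black bars the medians of the lists. Medians lie between -0.076 (dishevelled) and 0.059 (co-receptors), and SP8, FZD10, DKK1 and CD44 stand to the right of all other points.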

How the data were processed

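Gene expression was measured on Agilent 2-colour arrays, 1 group of 4 direct hybridisations. Per the labels' protocols, 200 ng of total RNA went into T7 amplification from oligo dT, and cyanine CTP was the label. The deposited values are log ratios of both channels, 1 column per array, rounded to 2 decimals and taken here as log2; each array averages about 0, and the 4 medians are -0.02, 0.03, -0.02 and 0.02. No source used here names the scanner software, background correction, normalization or genome build. Signal over background, control spots and dim probes were not analysed here, so precision rests on how many arrays there are.

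Of 45220 features, 31332 named 1 gene, 93 several and 13795 none. Symbols were updated by Entrez identifier to RefSeq (31291 features), and features were averaged per gene. limma 3.58.1 (R 4.3.3) fitted all genes with an intercept and a dye coefficient, moderated by eBayes and adjusted by Benjamini-Hochberg at 0.05; the intercept alone was an alternative. The fit was tested on simulated data. With 4 arrays an exact two-sided sign-flip test cannot go below 0.125. The members, lists, direction and tests were chosen with earlier results of these data known. Values by array are given for members with 1 sign on all 4 arrays, the 5 highest and 5 lowest means, an unadjusted p under 0.05, the 5 largest dye coefficients, and CTNNB1, AXIN2, LEF1, CD44, DKK1, SP5 and SP8. Of the 83 further pathway genes, the 3 highest, the 3 lowest and those with an unadjusted p under 0.05 are named. Other features, MYC, and further values by array were chosen after they were seen. Alternatives were the median of the features, the arrays turned by dye, median centring, scaling between arrays by limma's median absolute values, no moderation, single features and leaving out each replicate.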

Additional observations from a re-analysis of the deposited data

Results flagged for a closer look

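For 51 genes (the 42 listed, the 8 named further pathway genes and CHD6), the gap between the most distant array and its nearest neighbour was set against the range of the 4 values by Dixon's criterion. Chance would give about 2.55 such genes if the 4 values of each gene came from 1 normal distribution, and 1 was found. The dye orientations had opposite signs in 21 of the 42 listed genes (and in 52.7% of all genes), so that expected number does not apply well here. FZD10 was at 0.60 on replicate 3 and between 0.27 and 0.29 on the other arrays.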

How the results depend on the processing

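The count of 0 listed genes past the threshold stayed at 0 with the intercept alone, the median of the features, median centring, scaling, no moderation, single features and without any 1 replicate. Turned by dye it was 16, and 39 of the 83 further genes passed, against 0 (44.8% of all genes passed). That count of 16 was 9 to 16 without 1 replicate (9 without replicate 1) and 0 with no moderation (25.4% of all genes without replicate 1, and 0.0273% with no moderation); these alternatives for the turned arrays were chosen after seeing the data. Genes with 1 sign numbered 5 (7.06% of all genes had 1 sign), but 4 with median centring and 21 turned by dye (52.7% of all genes). Without 1 replicate, where 3 arrays decide, they numbered 5 to 9 (9 without replicate 1, against 14.1% of all genes). Promoter windows with the 7-letter form CTTTGAT numbered 1, and 3 with the shorter form. Over all genes, limma called 4, but 0 with the intercept alone, 8 with the median of the features, 7 with median centring, 9 with scaling, 6 with no moderation and 0 without any 1 replicate. Turned by dye, these changed sign: AXIN2 0.095, CCND1 0.14, CTNNB1 -0.10, DKK1 -0.068, FZD10 -0.073, FZD3 -1.04, FZD6 -0.37, LEF1 0.066, LRP5 0.74, NOTUM 0.15, SP8 -0.61, FRAT2 0.32, SFRP4 -0.64 and SOSTDC1 0.37. The median of the dye-balanced means of the listed genes lay between -0.043 and 0.034 without 1 replicate. CTNNB1 was at -0.0019 with median centring. Leaving out 1 replicate gave ranges of the dye-balanced mean across 0 for AXIN1 (-0.41 to 0.018), AXIN2 (-0.040 to 0.037), CTNNB1 (-0.11 to 0.11), FZD3 (-0.070 to 0.090), LEF1 (-0.048 to 0.025), LRP5 (-0.12 to 0.11), NKD2 (-0.035 to 0.080) and WNT3A (-0.038 to 0.40). Background correction, a filter on dim probes and the slide as a block were not run, since they need scanner values, which were not analysed here. The cause of these changes was not tested. Where 1 replicate is left out, the lone array of its orientation is assumed to vary like the others. Each array holds both conditions, so testing the mean log ratio against 0 already compares them within arrays. There is 1 group, and no further pairing was used.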
